A study of Mus musculus with 8 samples.

Results

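The genes described here encode the kinetochore and the spindle assembly checkpoint. They were taken as 45 listed symbols, each represented by a probe set annotated with that symbol alone, or by the probe set of highest mean over the 8 arrays where a gene had several. The array named 43 of the 45 in this way, out of 22180 genes with such a probe set. Mis12 and Cenpu were left out because their probe sets also carry the symbol of another gene. All 43 matched genes passed the filter on low signals and were among the 17576 genes tested. They fell into 4 classes: 18 outer kinetochore genes, 13 inner CENP genes, 6 checkpoint genes, and 6 genes of the Aurora B complex and the shugoshins. The classes follow the known functions of the proteins. Measured signal entered the choice between the 2 probe sets of Ska2. The members themselves were listed with earlier results of these data known.

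The study profiled sorted bone marrow populations of C57/Bl6 mice by microarray: 2 arrays of long-term stem cells (LT-HSC, replicates 1 and 3), 3 arrays of short-term stem cells (ST-HSC) and 3 of multipotent progenitors (MPP). All populations were Lin-Sca1+Kit+, and the labels give the age as 8 weeks. LT-HSC were further gated as CD48-CD150+CD34-, ST-HSC as CD48-CD150+CD34+, and MPP as CD48+CD150-CD34+. The labels describe no genotype other than the strain. Their accounts of treatment differ. Each sample's description states that there was no treatment. A protocol shared by all samples instead describes 2 hours in DMSO, a first transplantation lasting a year, and secondary recipients from which RNA was taken after 3 months. Nothing in the labels says that arrays of a population came from separate animals, so the p-values measure the spread between these arrays, which may be technical.

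The kinetochore is the protein assembly that joins the centromere of each chromosome to spindle microtubules. The inner CENP proteins sit on centromeric chromatin marked by the histone variant CENP-A, and they carry the outer kinetochore, whose NDC80 complex binds the microtubule. Checkpoint proteins gather at kinetochores without a proper attachment and hold back the anaphase-promoting complex, while Aurora B and its partners loosen faulty attachments. Transcripts of many of these genes are produced mainly in cells that are preparing for or passing through mitosis. Blood stem cells at the top of the hierarchy divide rarely, whereas progenitors below them divide often.

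Across the whole table, the array medians lay between 4.95 and 5.22 on the log2 scale, and the replicate 1 arrays of LT-HSC and ST-HSC were the least like the rest. Their median correlations were 0.956 and 0.968, against 0.976 to 0.985 for the remaining arrays. The transcripts of the sort markers followed the labels in part. Slamf1, which encodes CD150, was at 7.25 to 7.78 in the LT-HSC and ST-HSC arrays and at 4.77 to 5.46 in MPP. Cd34 was at 8.50 and 10.20 in LT-HSC replicates 1 and 3, and at 9.55, 10.15 and 10.07 in ST-HSC. Cd48 was at 5.92 and 6.63 in LT-HSC, 7.49, 6.51 and 6.57 in ST-HSC, and 7.84, 6.65 and 6.96 in MPP, so ST-HSC replicate 1, gated as CD48-, lay above MPP replicates 2 and 3. Flt3, a receptor of multipotent progenitors, was at 5.84 and 8.49 in the same LT-HSC arrays and at 7.19, 7.17 and 6.86 in ST-HSC. LT-HSC replicate 3, sorted as CD34-, thus held more Cd34 and Flt3 transcript than any ST-HSC array. It held less than the MPP means of 10.92 for Cd34 and 9.56 for Flt3. Relative to each gene's mean over the arrays, 7 stem cell markers averaged 0.28 and 0.57 in LT-HSC replicates 1 and 3. They averaged -0.36, 0.01 and 0.11 in ST-HSC and -0.21, -0.29 and -0.11 in MPP, so LT-HSC replicate 3 was the highest array by this mean. The markers did not all follow it. Mecom, Procr, Vwf and Fgd5 were highest in LT-HSC replicate 3. Hlf was higher in every MPP array than in LT-HSC, and Hoxb5 and Tek were highest in ST-HSC replicate 3. Because of the Cd34 and Flt3 values, results that rest on LT-HSC are also given against each LT-HSC array. The mean level of 14 granulocyte and monocyte markers, relative to each gene's mean over the arrays, was 0.81 and -0.96 in LT-HSC replicates 1 and 3, 1.18, -0.38 and -0.71 in ST-HSC, and 0.66, -0.35 and -0.24 in MPP. The stromal markers averaged 0.19 and -0.33 in LT-HSC, 1.08, -0.32 and -0.38 in ST-HSC, and 0.25, -0.27 and -0.22 in MPP. The erythroid markers averaged 0.04 and -0.16 in LT-HSC, 0.88, -0.27 and 0.00 in ST-HSC, and 0.43, -0.65 and -0.27 in MPP. For each of these lists, replicate 1 was thus the highest array of its population, and ST-HSC replicate 1 the highest of all. None of the granulocyte and monocyte markers, nor of the erythroid, stromal, B cell or T and NK cell markers, was called between populations by limma. Their part in the results was not tested.

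Averaged over the 43 genes, kinetochore transcripts were highest in ST-HSC, lower in MPP and lowest in LT-HSC. All 43 genes had a higher mean in ST-HSC than in LT-HSC, by a median of 1.32 on the log2 scale, beside a median of 0.02 over all genes tested. Of the 43, 29 rose at a limma adjusted p under 0.05, by 1.86-fold to 5.27-fold. Over all tested genes, 0.848% were called higher in ST-HSC, 0.0853% lower, and 0.933% in either direction. No kinetochore gene fell, and 40 were higher at an unadjusted p under 0.05, against 7.81% of all genes tested. In these bulk samples, fewer cycling cells and less RNA per cell cannot be told apart. In 40 of the 43 genes every ST-HSC array lay above both LT-HSC arrays, against 13.8% of all genes tested, and in none did every ST-HSC array lie below, against 9.5%. The exceptions were Zwint, Cenpt and Mad1l1.

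The count of calls depended on single arrays and on the setting, and it was 35 with the replicate block over all 8 arrays. It was 3 without LT-HSC replicate 1 (Ndc80, Ska1 and Ska3), 12 without ST-HSC replicate 3, and 15 with array weights. In these settings 0.0683%, 0.273% and 0.319% of all genes tested were called higher. With both replicate 1 arrays of LT-HSC and ST-HSC left out, no member was called by limma, although 35 were higher at an unadjusted p under 0.05, against 3.78% of all genes tested. Of the 43 differences, 42 stayed positive, with a median of 1.11. Without LT-HSC replicate 1 alone, which also leaves 1 LT-HSC array, 41 were positive, with a median of 1.20.

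**Figure D1:**
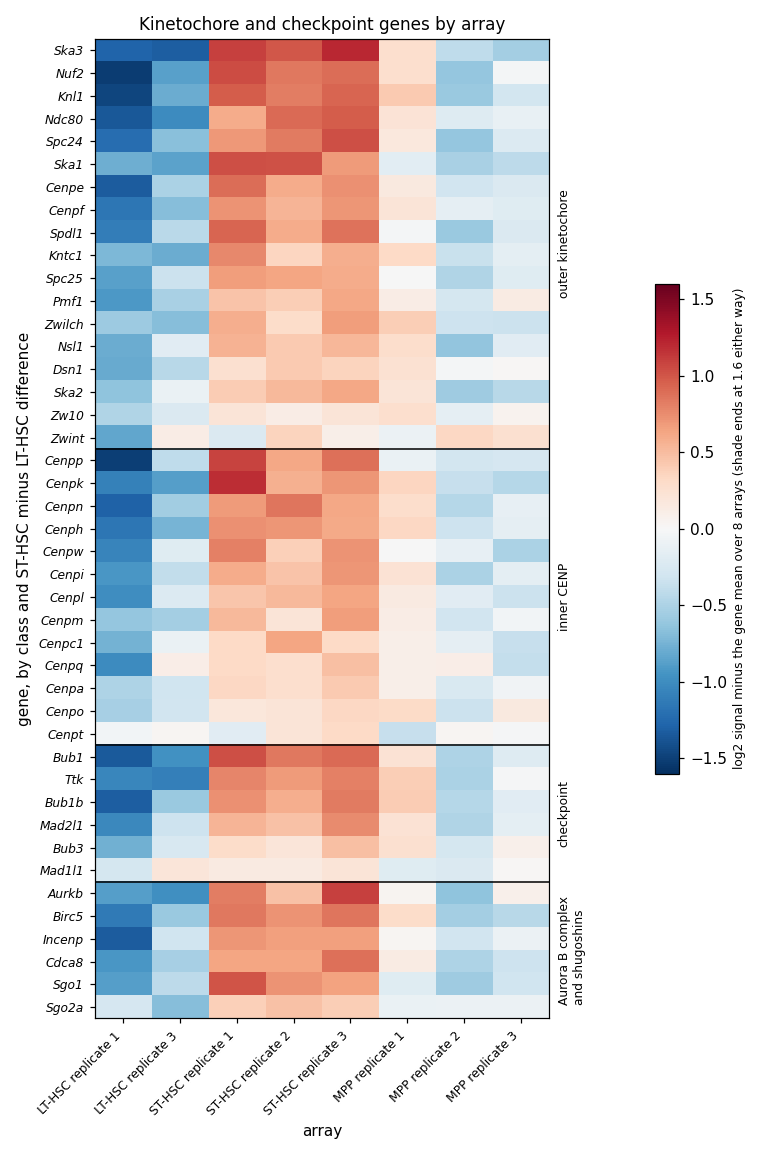
Log2 signal of each of the 43 genes on each of the 8 arrays, as the difference from the gene's mean over all arrays (colour scale, ending at 1.6 in both directions). Rows are genes ordered by class and by ST-HSC minus LT-HSC difference, and columns are arrays. The 3 ST-HSC columns are the warmest for 36 genes, and LT-HSC replicate 1 is the lowest array for 35.

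Promoter windows are shown for the genes that bound the range of response in each class because most of these genes moved together in the data. RefSeq windows (GRCm38.p6), from 250 bases before to 50 after the annotated start, were found for 37 of the 43 genes. Spc24, Nsl1, Ska1, Zwilch, Incenp and Aurkb had none. For each class, the gene with the largest and the gene with the smallest ST-HSC minus LT-HSC difference among those with a window is printed, and Sgo1 is added. Windows are written 5′ to 3′ on the gene's strand. Capitals mark the letters TTTGAA or TTCGAA, known from the cell cycle genes homology region, and CCAAT, the letters bound by NF-Y, each searched on both strands. On the opposite strand TTTGAA appears as TTCAAA and CCAAT as ATTGG, while TTCGAA reads the same on both strands. Ska3 lies at chr14:57826114-57826413 on the minus strand, Zwint at chr10:72654596-72654895 on the plus strand, and Cenpp at chr13:49652682-49652981 on the minus strand. Cenpt lies at chr8:105851959-105852258, Bub1 at chr2:127831810-127832109 and Mad1l1, the first of 2 windows, at chr5:140321503-140321802, all on the minus strand. Birc5 lies at chr11:117848987-117849286 and Sgo2a, also the first of 2 windows, at chr1:57985090-57985389, both on the plus strand. Sgo1 lies at chr17:53689266-53689565 on the minus strand.
Ska3: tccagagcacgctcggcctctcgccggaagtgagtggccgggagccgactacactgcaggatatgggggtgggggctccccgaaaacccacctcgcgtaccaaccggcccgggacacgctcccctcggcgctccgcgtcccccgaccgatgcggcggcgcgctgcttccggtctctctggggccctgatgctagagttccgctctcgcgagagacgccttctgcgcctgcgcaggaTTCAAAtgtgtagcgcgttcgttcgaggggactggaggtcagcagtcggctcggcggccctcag
Zwint: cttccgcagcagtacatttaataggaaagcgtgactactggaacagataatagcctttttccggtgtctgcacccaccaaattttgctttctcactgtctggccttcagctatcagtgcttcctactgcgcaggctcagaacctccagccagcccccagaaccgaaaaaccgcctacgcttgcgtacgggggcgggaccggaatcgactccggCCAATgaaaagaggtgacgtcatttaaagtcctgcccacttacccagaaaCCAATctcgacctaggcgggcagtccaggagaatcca
Cenpp: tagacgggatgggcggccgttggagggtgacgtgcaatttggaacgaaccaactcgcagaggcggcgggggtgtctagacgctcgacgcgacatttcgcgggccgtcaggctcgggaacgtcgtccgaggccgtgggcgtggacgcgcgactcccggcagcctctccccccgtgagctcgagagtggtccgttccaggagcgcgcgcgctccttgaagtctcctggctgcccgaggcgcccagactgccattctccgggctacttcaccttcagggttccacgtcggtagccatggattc
Cenpt: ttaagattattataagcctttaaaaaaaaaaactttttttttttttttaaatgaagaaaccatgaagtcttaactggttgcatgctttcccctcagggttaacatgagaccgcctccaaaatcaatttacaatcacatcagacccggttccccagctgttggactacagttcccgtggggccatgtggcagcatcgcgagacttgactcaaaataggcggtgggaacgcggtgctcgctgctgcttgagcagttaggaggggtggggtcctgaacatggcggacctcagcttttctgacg
Bub1: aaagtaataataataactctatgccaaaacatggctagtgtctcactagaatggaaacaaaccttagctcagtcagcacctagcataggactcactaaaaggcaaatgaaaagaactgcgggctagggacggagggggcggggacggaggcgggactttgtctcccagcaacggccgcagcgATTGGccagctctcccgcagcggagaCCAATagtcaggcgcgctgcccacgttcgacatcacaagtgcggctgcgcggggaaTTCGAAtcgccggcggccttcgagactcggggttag
Mad1l1: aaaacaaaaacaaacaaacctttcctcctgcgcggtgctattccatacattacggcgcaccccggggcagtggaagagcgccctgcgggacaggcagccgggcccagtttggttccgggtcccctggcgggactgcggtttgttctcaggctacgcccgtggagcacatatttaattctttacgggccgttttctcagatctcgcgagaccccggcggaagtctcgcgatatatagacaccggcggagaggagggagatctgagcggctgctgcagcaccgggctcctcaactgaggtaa
Birc5: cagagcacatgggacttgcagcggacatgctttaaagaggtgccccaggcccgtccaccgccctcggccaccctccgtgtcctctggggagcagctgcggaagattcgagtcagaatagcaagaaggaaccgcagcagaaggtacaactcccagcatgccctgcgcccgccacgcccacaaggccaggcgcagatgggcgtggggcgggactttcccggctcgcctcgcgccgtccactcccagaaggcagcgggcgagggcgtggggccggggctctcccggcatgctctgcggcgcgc
Sgo2a: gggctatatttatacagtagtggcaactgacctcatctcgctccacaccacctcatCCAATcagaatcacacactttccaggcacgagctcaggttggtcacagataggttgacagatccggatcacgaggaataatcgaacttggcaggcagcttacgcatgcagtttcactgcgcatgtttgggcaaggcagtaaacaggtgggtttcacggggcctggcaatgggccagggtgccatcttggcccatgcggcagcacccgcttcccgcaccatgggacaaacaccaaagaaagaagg
Sgo1: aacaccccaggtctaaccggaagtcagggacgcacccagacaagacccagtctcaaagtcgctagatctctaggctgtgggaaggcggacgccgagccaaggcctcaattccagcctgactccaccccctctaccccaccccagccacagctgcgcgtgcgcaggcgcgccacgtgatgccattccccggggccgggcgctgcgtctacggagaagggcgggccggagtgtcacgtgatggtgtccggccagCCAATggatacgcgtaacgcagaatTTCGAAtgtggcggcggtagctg

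A gene was counted if any of its windows matched. TTTGAA or TTCGAA occurred in 20 of the 37 genes (54.1%), and in 21.7% of all 27025 genes with a window. That background is wider than the 22180 genes with a probe set and the 17576 tested. CCAAT occurred in 25 of the 37 (67.6%), and in 41.1% of the background. Both were present in the same window in 16 of the 37 (43.2%), among them Bub1 and Sgo1, and in 8.61% of the background. Among genes called higher in ST-HSC than in LT-HSC, 15 of 25 held TTTGAA or TTCGAA, and 5 of 12 genes not called did. CCAAT was in 17 of those 25 and 8 of those 12. By class, TTTGAA or TTCGAA was found in 9 of 14 outer kinetochore, 5 of 13 inner CENP, 4 of 6 checkpoint and 2 of 4 Aurora B and shugoshin genes. Of the printed genes, Bub1 and Sgo1, with both, Ska3, with TTTGAA, and Sgo2a, with CCAAT, rose. Birc5 and Cenpp, which had neither, also rose. Cenpt and Mad1l1, with neither, and Zwint, with CCAAT at bases 214 and 264 of its window, did not pass the test. Whether the letters are linked to the differences was not tested. A match describes letters, not a bound site.

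Of the 18 outer kinetochore genes, 13 rose in ST-HSC over LT-HSC, with a class median of 1.44 on the log2 scale. All 4 subunits of the NDC80 complex rose, by a median of 1.90. Ndc80, a microtubule-binding subunit, had log2 signals of 6.28 and 6.63 in LT-HSC, 8.24, 8.55 and 8.61 in ST-HSC, and 7.86, 7.43 and 7.52 in MPP. No array of a population overlapped another population. The rise in ST-HSC was 2.01 (SE 0.21, 4.02-fold, limma adjusted p = 0.00426). Nuf2, its partner in the microtubule-binding head, had signals of 6.19 and 6.85 in LT-HSC, 8.76, 8.55 and 8.61 in ST-HSC, and 7.98, 7.09 and 7.68 in MPP. Here too the populations were fully separated, and the rise was 2.12 (SE 0.27, 4.35-fold, limma adjusted p = 0.00574). Spc24 and Spc25, which anchor the complex to the kinetochore, rose by 1.80 and 1.24.

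The widest difference of all 43 genes was in the SKA complex, which helps kinetochores hold on to shortening microtubules. Ska3 was at 5.09 and 5.05 in LT-HSC, 7.46, 7.37 and 7.58 in ST-HSC, and 6.64, 5.97 and 5.82 in MPP. LT-HSC had a mean of 5.07 ± 0.03 (SD, n = 2). ST-HSC averaged 7.47 ± 0.11 (SD, n = 3), and the MPP mean was 6.14 ± 0.43 (SD, n = 3). The ST-HSC arrays lay tightly together and the MPP arrays were spread out between the other populations. Ska3 rose by 2.40 in ST-HSC (SE 0.23, 5.27-fold, limma adjusted p = 0.00401). Ska1 was at 5.61 and 5.53 in LT-HSC, 7.42, 7.40 and 7.07 in ST-HSC, and 6.22, 5.87 and 5.97 in MPP, a rise of 1.73 in ST-HSC (SE 0.19, 3.31-fold, limma adjusted p = 0.0043). Ska2, the remaining subunit, differed by 0.89 and did not pass the test.

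Knl1, the scaffold that recruits Bub1 and its relatives, rose by 2.04 (limma adjusted p = 0.00782). Zwint, its binding partner, was at 7.30 and 8.24 in LT-HSC, 7.89, 8.48 and 8.22 in ST-HSC, and 8.03, 8.46 and 8.38 in MPP. LT-HSC replicate 3 sat among the ST-HSC and MPP arrays, and the difference of 0.43 (SE 0.28) did not pass the test, with a limma adjusted p of 0.608. In the MIS12 complex, which links the inner and outer kinetochore, Dsn1 and Pmf1 rose by 0.97 and 1.20, and Nsl1 differed by 0.99 without passing.

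The ROD-ZW10-Zwilch complex and Spindly bring dynein to kinetochores. Kntc1, which encodes ROD, rose by 1.32 and Spdl1, which encodes Spindly, by 1.56. Zwilch differed by 1.15 (limma adjusted p = 0.0553). Zw10, which also acts in membrane traffic between divisions, was at 6.38 and 6.64 in LT-HSC, 7.07, 6.98 and 7.07 in ST-HSC, and 7.13, 6.73 and 6.92 in MPP. Its ST-HSC arrays lay above both LT-HSC arrays but within the span of MPP, and the difference of 0.53 (SE 0.18) had a limma adjusted p of 0.299. The kinesin gene Cenpe and Cenpf, both of the outer corona, rose by 1.66 and 1.57.

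**Figure D2:**
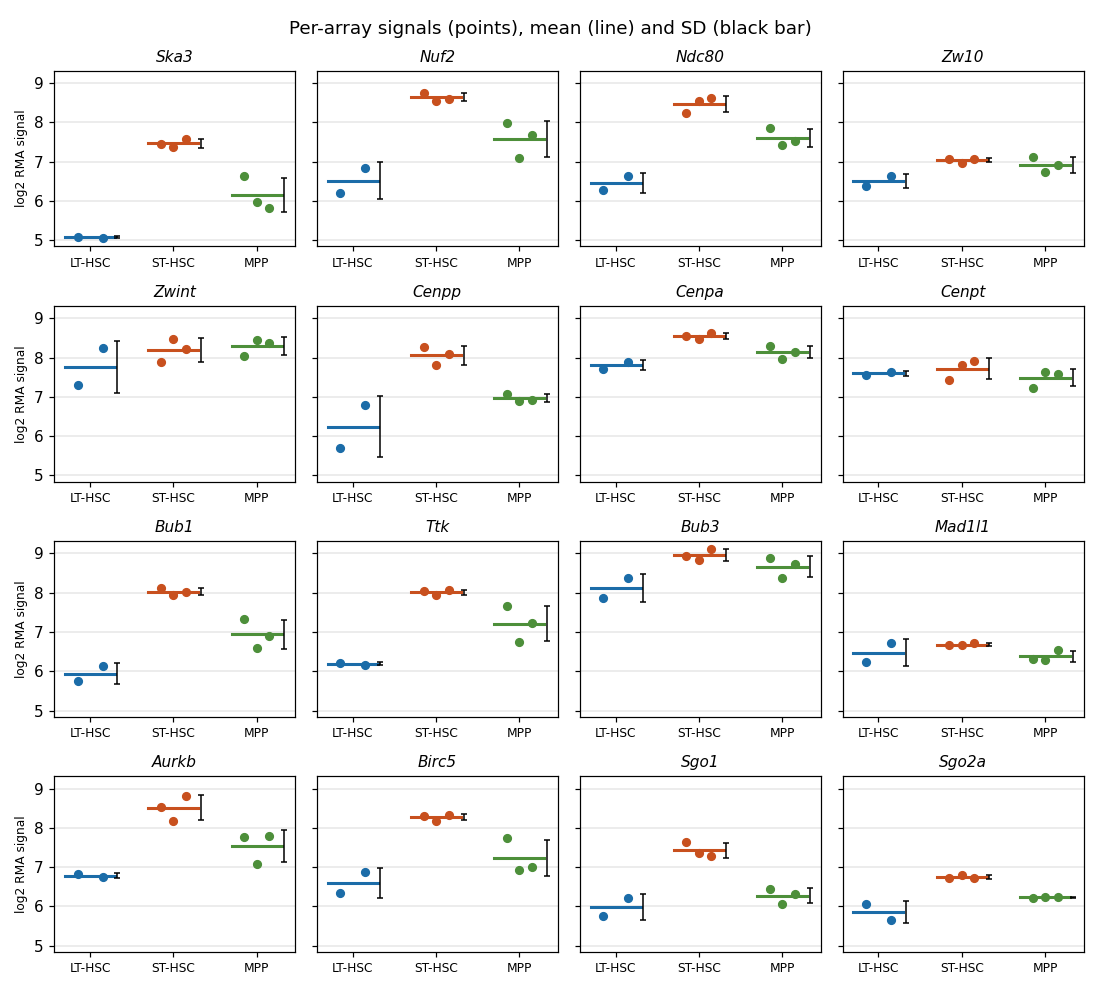
Log2 signal on each array (points) for selected genes in each population, with its mean (line) and SD (black bar, n = 2, 3 and 3). Ska3, Ndc80 and Bub1 separate the 3 populations without overlap, whereas the arrays of Zwint, Cenpt and Mad1l1 overlap between LT-HSC and ST-HSC.

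Of the 13 inner CENP genes, 6 rose in ST-HSC over LT-HSC, with a class median of 1.14. Whether this median differs from that of the outer kinetochore was not tested. Counting Cenpe and Cenpf with the CENP genes brought the medians to 1.28 for the outer kinetochore and 1.26 for the CENP genes. The genes that rose included Cenph, Cenpi, Cenpk and Cenpm, whose products form a module of the inner kinetochore, and Cenpn, which reads CENP-A nucleosomes.

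Cenpp had the widest difference of the class. It was at 5.69 and 6.79 in LT-HSC, 8.27, 7.81 and 8.08 in ST-HSC, and 7.08, 6.91 and 6.93 in MPP. The populations did not overlap, but the LT-HSC arrays were 1.10 apart. Cenpp rose by 1.82 (SE 0.28, 3.53-fold, limma adjusted p = 0.012). Cenpk was at 5.59 and 5.78 in LT-HSC, 7.84, 7.23 and 7.36 in ST-HSC, and 7.0, 6.29 and 6.21 in MPP, and rose by 1.80 (SE 0.26, 3.48-fold, limma adjusted p = 0.0098).

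Cenpa, which encodes the centromeric histone itself, was at 7.71 and 7.89 in LT-HSC, 8.54, 8.47 and 8.63 in ST-HSC, and 8.30, 7.97 and 8.15 in MPP. Its populations were separated without overlap by a small step. ST-HSC exceeded LT-HSC by 0.75 (SE 0.17, 1.68-fold), with a limma adjusted p of 0.0921. Cenpo, of the same subcomplex as Cenpp, was at 6.01 and 6.22 in LT-HSC, 6.71, 6.74 and 6.87 in ST-HSC, and 6.84, 6.19 and 6.69 in MPP, a difference of 0.66 (SE 0.21, limma adjusted p = 0.248). Cenpt, which can recruit NDC80 complexes to the centromere, was at 7.55 and 7.63 in LT-HSC, 7.42, 7.81 and 7.92 in ST-HSC, and 7.24, 7.63 and 7.59 in MPP. Its arrays overlapped in every comparison, and its difference of 0.12 (SE 0.20) was the smallest of the 43. After quantile normalization it was -0.04. Its partner Cenpw differed by 1.26 (limma adjusted p = 0.0592). Cenpc1, which joins CENP-A nucleosomes to the MIS12 complex, differed by 0.86, and Cenpl and Cenpq by 1.14 and 0.81, none passing the test.

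Of 6 checkpoint genes, 4 rose, with a class median of 1.47. Bub1, a kinase that marks centromeric chromatin and recruits checkpoint proteins, was at 5.75 and 6.13 in LT-HSC, 8.13, 7.94 and 8.01 in ST-HSC, and 7.33, 6.60 and 6.90 in MPP. The ST-HSC arrays were the highest and the LT-HSC arrays the lowest, with no overlap. Bub1 rose by 2.09 (SE 0.23, 4.25-fold, limma adjusted p = 0.0043). Ttk, the MPS1 kinase that starts checkpoint signalling, was at 6.22 and 6.16 in LT-HSC, 8.05, 7.94 and 8.06 in ST-HSC, and 7.65, 6.75 and 7.24 in MPP. It rose by 1.83 (SE 0.24, 3.55-fold, limma adjusted p = 0.00574). Bub1b, which encodes BUBR1, rose by 1.67 and Mad2l1, which encodes MAD2, by 1.27. Both proteins are part of the complex that inhibits the anaphase-promoting complex.

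Bub3, the partner of Bub1 and BUBR1, was at 7.87 and 8.38 in LT-HSC, 8.93, 8.83 and 9.11 in ST-HSC, and 8.89, 8.36 and 8.72 in MPP. The difference of 0.83 (SE 0.22) had a limma adjusted p of 0.149. Mad1l1, which holds MAD2 at the kinetochore, was at 6.23 and 6.71 in LT-HSC, 6.66, 6.66 and 6.72 in ST-HSC, and 6.32, 6.28 and 6.54 in MPP. Its LT-HSC replicate 3 lay within the ST-HSC values, and the difference was 0.21 (SE 0.19, limma adjusted p = 0.716). Without LT-HSC replicate 1 it was -0.03.

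All 6 genes of the Aurora B complex and the shugoshins rose, with a class median of 1.47. Aurkb, the kinase of the complex, was at 6.83 and 6.74 in LT-HSC, 8.54, 8.18 and 8.81 in ST-HSC, and 7.76, 7.07 and 7.80 in MPP. No arrays overlapped between populations, and Aurkb rose by 1.73 (SE 0.25, 3.31-fold, limma adjusted p = 0.01). Birc5, which encodes survivin, was at 6.33 and 6.86 in LT-HSC, 8.31, 8.18 and 8.31 in ST-HSC, and 7.75, 6.92 and 7.01 in MPP. It rose by 1.67 (SE 0.26, 3.18-fold, limma adjusted p = 0.012). Incenp, the scaffold, and Cdca8, which encodes borealin, rose by 1.50 and 1.44. The 4 members of the complex thus had a median rise of 1.59.

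The shugoshins protect cohesin at centromeres. Sgo1 was at 5.75 and 6.22 in LT-HSC, 7.64, 7.35 and 7.28 in ST-HSC, and 6.44, 6.06 and 6.31 in MPP. It rose by 1.44 in ST-HSC (SE 0.21, 2.72-fold, limma adjusted p = 0.00883), while its MPP arrays overlapped LT-HSC. Sgo2a was at 6.06 and 5.65 in LT-HSC, 6.72, 6.80 and 6.73 in ST-HSC, and 6.22, 6.24 and 6.24 in MPP. It had the smallest called rise of the 43 genes, 0.89 (SE 0.17, 1.86-fold, limma adjusted p = 0.0422).

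**Figure D3:**
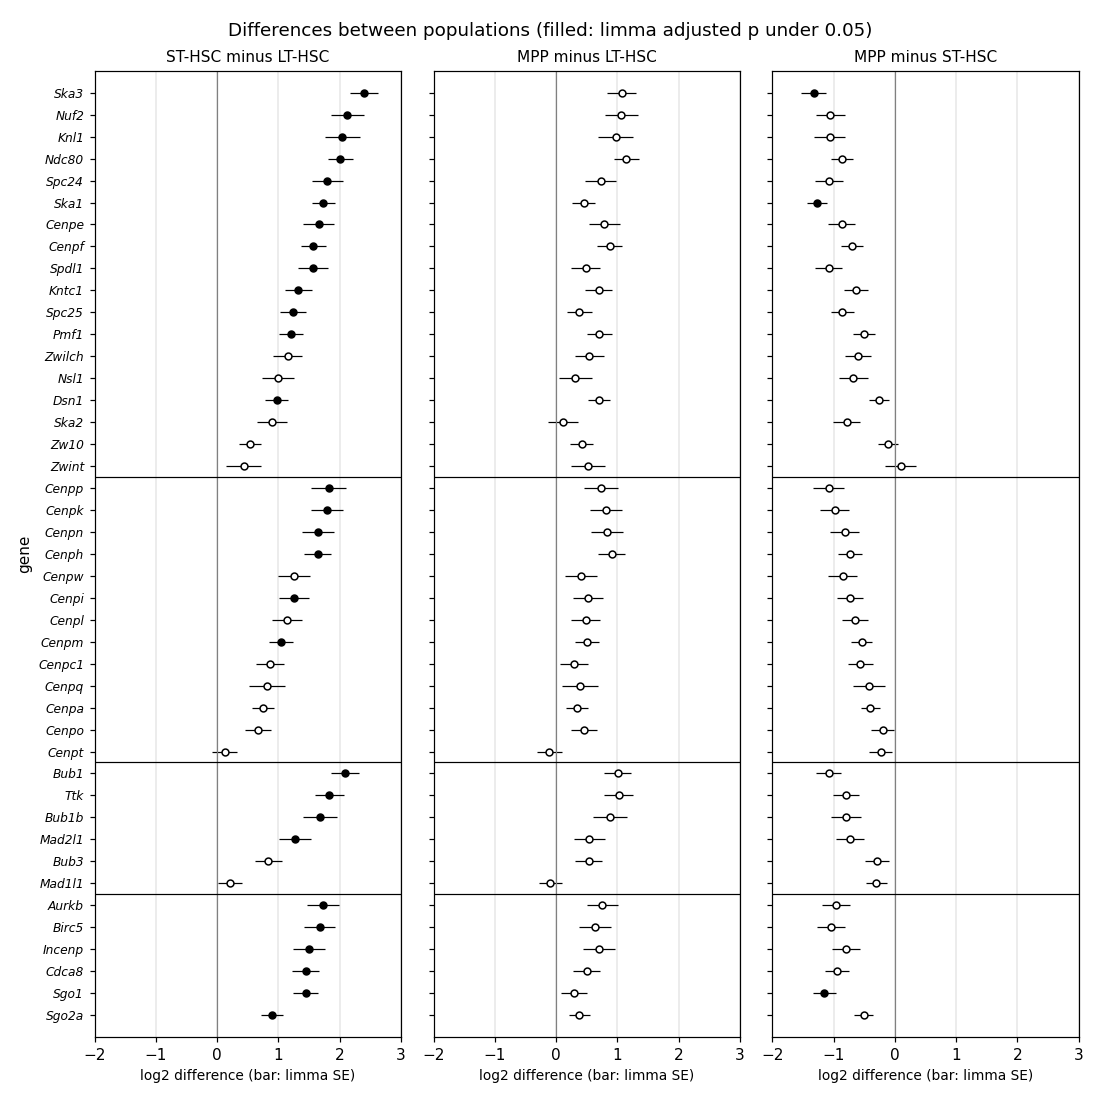
Log2 differences between populations for the 43 genes, with limma standard errors as bars and filled points where the limma adjusted p was under 0.05. All ST-HSC minus LT-HSC differences lie above 0, from 0.12 to 2.40, with 29 filled. No MPP minus LT-HSC point is filled, and 3 are filled for MPP minus ST-HSC.

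The 2 LT-HSC arrays gave differences of unequal size. The ST-HSC mean exceeded LT-HSC replicate 1 by a median of 1.64 over the 43 genes and LT-HSC replicate 3 by a median of 1.20. LT-HSC replicate 1 was the lower of the pair for 36 genes. The 9 ubiquitous control genes described below were lower on it too, averaging -0.38 against -0.01 in replicate 3. Its median over all probe sets, 5.22, was nevertheless the highest of the arrays. With each array centred on its median, the ST-HSC minus LT-HSC differences had a median of 1.43 over the 43 genes. With the interquartile range as a covariate that median was 1.21. All 43 differences were positive in both fits. Whether another trait of this array enters the member differences was not tested. Against replicate 1 all 43 differences were positive and 36 exceeded 1, whereas against replicate 3 41 were positive and 25 exceeded 1. The 2 that turned negative against replicate 3 were Zwint and Mad1l1. Incenp showed the gap clearly, at 5.78 in LT-HSC replicate 1 and 6.78 in replicate 3, beside 7.82, 7.77 and 7.76 in ST-HSC. Ska3, Ska1, Ttk and Aurkb had nearly equal values in both LT-HSC arrays. The median distance between the highest and lowest array was 0.48 in LT-HSC, 0.25 in ST-HSC and 0.53 in MPP.

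**Figure D4:**
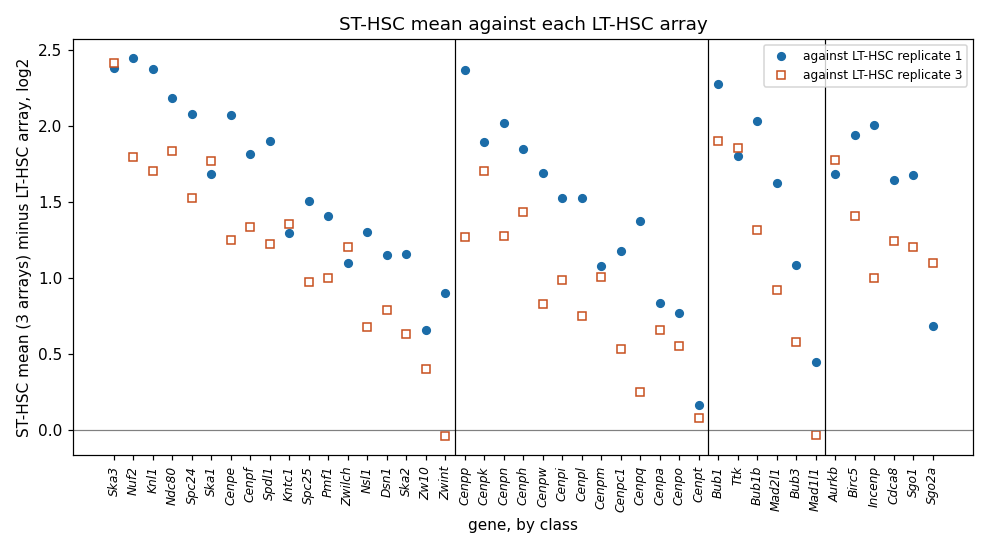
ST-HSC mean (3 arrays) minus each single LT-HSC array, log2, for the 43 genes ordered by class. Filled circles are differences from LT-HSC replicate 1 (median 1.64) and open squares those from replicate 3 (median 1.20). Only the squares of Zwint and Mad1l1 lie below 0.

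MPP lay between LT-HSC and ST-HSC for most genes. In 25 of the 43 every MPP array was above both LT-HSC arrays and below every ST-HSC array, an order found in 1.17% of all genes tested. For 36 genes every ST-HSC array was above all 5 other arrays, against 3.56% of all genes tested. This held for 15 of 18 outer kinetochore, 11 of 13 inner CENP, 4 of 6 checkpoint and 6 of 6 Aurora B and shugoshin genes. Set against the mean of LT-HSC and MPP, 25 genes were called higher in ST-HSC by limma and none lower, while 0.711% of all genes tested were called higher, 0.0512% lower and 0.762% either way. The count of 25 became 11, 10 and 2 without ST-HSC replicates 1, 2 and 3 and 14 without MPP replicate 3. The F test over the 3 populations called 24 of the 43 genes, against 0.905% of all genes tested. The F test count became 6 without LT-HSC replicate 1, 13, 8 and 4 without ST-HSC replicates 1, 2 and 3, and 7 without MPP replicate 3. The share of all genes tested that was called with single arrays left out is not given for these 2 tests, so those counts show only how the calls moved. Since the comparisons share arrays, they are not independent of each other.

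From ST-HSC to MPP, the median difference was -0.79, and 42 of 43 genes had a lower mean in MPP. Ska1, Ska3 and Sgo1 fell at a limma adjusted p under 0.05, where 0.125% of all genes tested were called lower and 0.193% either way. No kinetochore gene was called higher in MPP, against 0.0683% of all genes. Ska1 fell by 1.27 (SE 0.17, limma adjusted p = 0.0159), Ska3 by 1.33 (SE 0.21, limma adjusted p = 0.034) and Sgo1 by 1.15 (SE 0.19, limma adjusted p = 0.0396). In each of these genes all 3 MPP arrays lay below all 3 ST-HSC arrays, as they did in 37 of the 43 genes and in 6.43% of all genes tested. The remaining 6 were Bub3, Cenpo, Cenpt, Zw10, Zwilch and Zwint. Zwint had the only positive difference, 0.09.

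ST-HSC and MPP arrays with the same replicate number deviated together from their population means, with correlations of 0.15, 0.23 and 0.21. The labels do not say what the number marks. A block chosen from this pattern rests on the same values that it is used to test, so its count is not separate support. With the replicate number as a block, 16 of the 43 genes fell in MPP against ST-HSC by limma, and 0.802% of all genes tested were called lower in that fit. They were Ndc80, Nuf2, Spc24, Spc25, Knl1, Ska1, Ska3 and Spdl1 of the outer kinetochore, Cenpk and Cenpp of the inner kinetochore, Bub1 and Ttk of the checkpoint, and Aurkb, Birc5, Cdca8 and Sgo1. Bub1, for example, fell by 1.08 with a limma adjusted p of 0.0749 without the block and 0.0119 with it. The unblocked count of 3 became 0 when any ST-HSC array, MPP replicate 2 or MPP replicate 3 was left out, and 5 when either LT-HSC array was.

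Between MPP and LT-HSC, 41 of the 43 genes had a higher mean in MPP, by a median of 0.54 beside 0.06 over all genes tested, and none was called. The share called higher over all genes was 0.00569%. At an unadjusted p under 0.05, 26 of the 43 genes were higher in MPP, against 6.96% of all genes tested. Every MPP array lay above both LT-HSC arrays for 27 genes, against 14.1% of all genes tested. Ndc80 came closest to the threshold, with a difference of 1.15 (SE 0.21) and a limma adjusted p of 0.0875. Without LT-HSC replicate 3, 10 genes were called, among them Ndc80, Nuf2, Bub1, Cenpp and Incenp, where 2.77% of all genes tested were called higher, and 0 were called without LT-HSC replicate 1. Ska1 and Sgo1 had differences of 0.45 and 0.29. Every MPP array lay above both LT-HSC arrays for Ska1, whereas the arrays of Sgo1 overlapped. Cenpt and Mad1l1 had differences of -0.11 and -0.09, which turned to 0.01 and 0.03 with each array centred on its median.

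The MPP arrays were not alike. MPP replicate 1 was the highest MPP array for 36 of the 43 genes, and MPP replicate 2 was the lowest for 32. Ttk, at 7.65, 6.75 and 7.24, and Knl1, at 8.52, 7.52 and 7.81, showed this order. Relative to each gene's mean over the 8 arrays, the 43 genes averaged -0.94 and -0.50 in LT-HSC, 0.62, 0.54 and 0.66 in ST-HSC, and 0.15, -0.34 and -0.17 in MPP.

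Other genes of mitosis were read from further lists. All 8 mitotic kinase and cyclin B genes measured rose in ST-HSC over LT-HSC, by a median of 1.40. Ccnb2, a B-type cyclin, was at 7.83 and 8.16 in LT-HSC and 10.01, 9.54 and 9.84 in ST-HSC, a rise of 1.80 (limma adjusted p = 0.00648). Cdk1, the main mitotic kinase, rose by 1.74 (limma adjusted p = 0.00687). Of 20 DNA replication genes, 7 rose and the median difference was 1.01. All 20 differences were positive, from 0.42 to 1.45, against 52% of all genes tested. Pcna, Mcm6 and Mcm4, those with the highest probe set signals, differed by 0.42, 0.75 and 0.87 without passing. Of 10 other checkpoint and attachment regulators, 3 rose, with a median of 1.08. None of 9 ubiquitous control genes was called, and their median was 0.17. Relative to each gene's mean over the arrays, the controls averaged -0.38 and -0.01 in LT-HSC replicates 1 and 3. They averaged -0.02, 0.09 and 0.09 in ST-HSC and 0.13, -0.04 and 0.13 in MPP. LT-HSC replicate 1 was thus the lowest array for the controls too. Its interquartile range was also the lowest, 2.49 against 2.73 to 3.06 in the other arrays.

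The checkpoint acts on the anaphase-promoting complex. Of its 14 core subunits, none was called and the median ST-HSC minus LT-HSC difference was 0.30, with all 14 positive. Of the complex's 5 activators, E2 enzymes and inhibitor, 4 rose, with a median of 1.16. Cdc20, the activator that the checkpoint captures, was at 6.58 and 7.04 in LT-HSC, 8.28, 8.39 and 8.57 in ST-HSC, and 7.77, 7.18 and 7.58 in MPP, and rose by 1.60 (limma adjusted p = 0.00735). Ube2c, an E2 enzyme of the complex, rose by 1.76 (limma adjusted p = 0.00658).

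Downstream of that complex, Pttg1, which encodes securin, was at 7.78 and 8.06 in LT-HSC, 7.86, 7.72 and 7.89 in ST-HSC, and 7.67, 7.89 and 8.11 in MPP. Its arrays overlapped between all populations, and ST-HSC minus LT-HSC came to -0.09 (limma adjusted p = 0.89). Espl1, which encodes separase, differed by 0.88 (limma adjusted p = 0.121). Of the 14 genes of securin, separase and cohesin, Cdca5 and Esco2 rose, by 1.60 and 1.63. Both act in establishing cohesion during DNA replication. Esco2 also fell in MPP against ST-HSC, by 1.22 (limma adjusted p = 0.025). Among 5 other centromere proteins none was called and the median was 0.43. Mis18a, the only gene measured of the 4 listed for CENP-A loading, differed by 0.93 (limma adjusted p = 0.193). No gene of these pathway lists was called between MPP and LT-HSC.

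**Figure D5:**
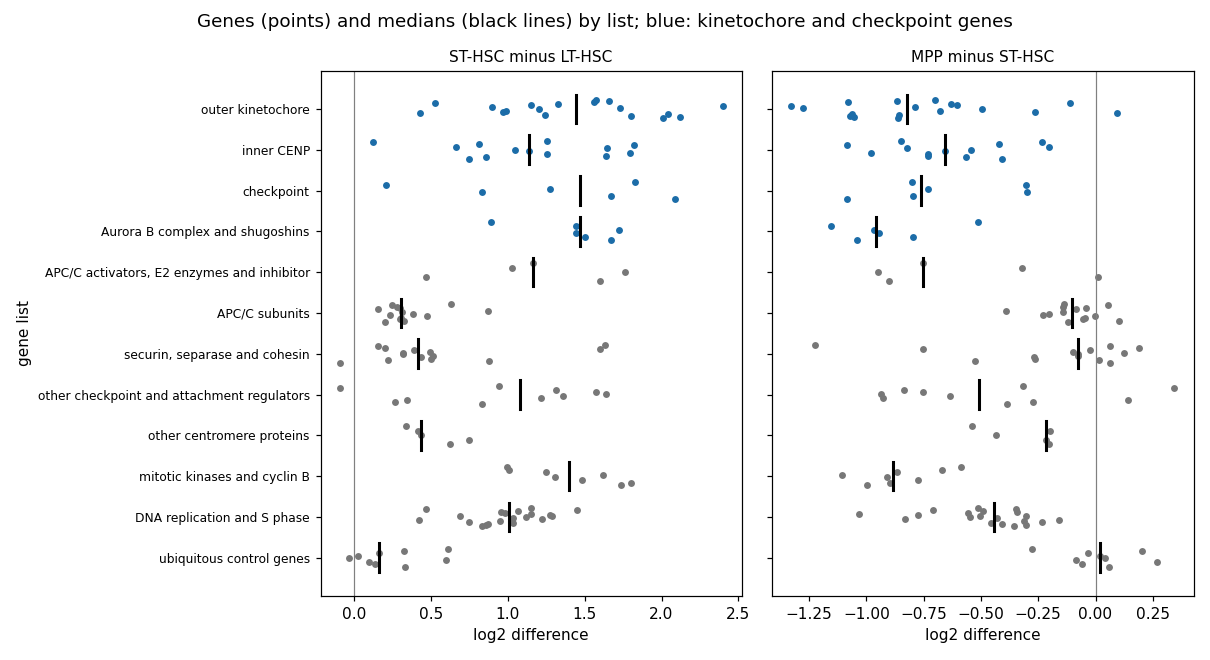
Log2 differences of the single genes (points) and their medians (black lines) for the 4 classes of kinetochore and checkpoint genes (blue) and for further gene lists. In ST-HSC minus LT-HSC, the medians of the 4 classes lie between 1.14 and 1.47. Mitotic kinases and cyclin B are at 1.40, and the activators, E2 enzymes and inhibitor of the anaphase-promoting complex at 1.16. Other checkpoint and attachment regulators are at 1.08 and DNA replication genes at 1.01. The ubiquitous controls sit at 0.17 and the core anaphase-promoting complex at 0.30.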

How the data were processed

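The values were the authors' deposited log2 signals per probe set, made with RMA per the submitters' processing notes. No source states the scale, and log2 was inferred from the range of the values. RNA was extracted with Trizol, amplified with the Ovation Pico WTA V2 kit and labelled with biotin, per the labels' protocols. Amplification can add spread between arrays, and precision is limited by there being so few of them. Of 33649 probe sets, 23521 had 1 gene symbol in the platform annotation, 1814 had several and 8314 were unnamed here. Each gene was read from its probe set of highest mean. Genes with a mean of at least 3.88 (log2), the 25th percentile over the probe sets, were tested.

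All 8 arrays entered 1 limma model (limma 3.58.1, R 4.3.3) with a mean per population from the sample titles and a shared spread, with 5 residual and 5.93 prior degrees of freedom. Adjusted p-values are limma's with Benjamini-Hochberg adjustment over 17576 genes, and a gene was called under 0.05. The script was tested on simulated data.

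The labels do not say what a replicate number marks. ST-HSC and MPP arrays of the same number correlated in their deviations at 0.15, 0.23 and 0.21, and those of different numbers at -0.28 to 0.07, and on that basis the report adds a blocked fit of MPP minus ST-HSC to the main one, which has no block. The check was not run on LT-HSC, which has only the numbers 1 and 3. The granulocyte and monocyte markers were higher in replicate 1 than in replicate 3 in every population. Their levels in replicates 1 and 3 were 0.81 and -0.96 in LT-HSC, 1.18 and -0.71 in ST-HSC, and 0.66 and -0.24 in MPP. What arrays of the same number share was not tested.

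Values of every array were given for the genes with the 2 largest and 2 smallest ST-HSC minus LT-HSC differences of a class, for those of opposite sign to their class, and for Ndc80, Bub1, Cenpa and Aurkb. From other lists, up to 3 genes of highest mean probe set signal were eligible, with Cdc20, Pttg1 and Espl1. Ska1, Knl1, Incenp, Esco2, Cdca5 and the repeat of other array values were chosen after their values were seen. The members and lists were chosen with earlier results of these data known. Alternatives changed the normalization, the filter, the probe set rule, the arrays fitted, array weights, the eBayes settings, a covariate for the interquartile range, the block and the classes of Cenpe and Cenpf. Promoter windows were RefSeq's.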

Additional observations from a re-analysis of the deposited data

How the results depend on the processing

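Of the 43 genes, the number called in ST-HSC minus LT-HSC was 29, and 15 with array weights, 0 with the replicate 1 arrays of LT-HSC and ST-HSC both left out, and 3 to 35 when single arrays were left out. None of the 29 kept its call under every alternative run. For MPP minus LT-HSC the number was 0, and 1 after quantile normalization, 6 with the replicate block over all 8 arrays, and 0 to 10 with single arrays left out. For MPP minus ST-HSC it was 3, and 0 with each array centred on its median, 1 with no filter, 5 with only the 2 populations, 16 with the replicate block over all arrays, 18 with the block in only ST-HSC and MPP, 29 with array weights, 11 with the interquartile range as a covariate, and 0 to 5 with single arrays left out. For ST-HSC minus the mean of the others it was 25, and 5 with both replicate 1 arrays left out, and 2 to 30 with single arrays left out. For the F test it was 24, and 9 after centring, 4 with both replicate 1 arrays left out, and 4 to 29 with single arrays left out. The cause of these moves was not tested, except that leaving out arrays also leaves fewer samples. The share of all genes tested that was called is given above for only some of these fits. Without that share, a count shows how the calls moved and is not read as a result about the members. With the block over all arrays, the other counts were 35 for ST-HSC minus LT-HSC, 33 for ST-HSC minus the mean of the others and 32 for the F test. LT-HSC shares only replicate numbers 1 and 3 with the others. Centring each array on its median moved the all-gene medians from 0.02 to 0.13 in ST-HSC minus LT-HSC and from 0.06 to 0.18 in MPP minus LT-HSC.

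Values that changed sign were all of uncalled differences. In MPP minus LT-HSC, with single arrays left out, Cenpc1 ranged from -0.030 to 0.61, Cenpq from -0.17 to 0.95, Cenpw from -0.023 to 0.84, Ska2 from -0.16 to 0.37, Cenpt from -0.18 to 0.013 and Mad1l1 from -0.33 to 0.15. Over the same settings Zwint ranged from -0.041 to 0.90 in ST-HSC minus LT-HSC, from -0.067 to 0.40 in ST-HSC minus the mean of the others and, for MPP minus ST-HSC, from -0.06 to 0.24, and Mad1l1 from -0.031 to 0.45 in ST-HSC minus LT-HSC. With both replicate 1 arrays left out, MPP minus LT-HSC was -0.030 for Cenpc1, -0.17 for Cenpq, -0.023 for Cenpw and -0.16 for Ska2, ST-HSC minus LT-HSC was -0.021 for Mad1l1 and MPP minus ST-HSC was -0.06 for Zwint. Ska2 was -0.19 in MPP minus LT-HSC with the covariate, and Cenpt and Mad1l1 were 0.012 and 0.03 after centring. Cenpt was -0.037 in ST-HSC minus LT-HSC after quantile normalization.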

Other observations

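Ska2 was the only one of the 43 genes with a second probe set. That probe set was at 4.91 and 5.01 in LT-HSC, 5.52, 5.42 and 5.42 in ST-HSC, and 5.35, 5.41 and 5.42 in MPP. Its MPP arrays lay close to ST-HSC, whereas on the probe set used above MPP replicates 2 and 3, at 6.0 and 6.12, lay near the LT-HSC values of 5.93 and 6.45. The difference between the probe sets was not tested.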
